A study of Capitella teleta with 10 samples.

Results

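Gastrula and stage 5 larva of *Capitella teleta* are the ends of the interval over which this marine segmented worm turns from an embryo with newly placed germ layers into a larva with a segmented trunk. Both stages were compared here, and the intermediate stage 4tt was placed along the change between them. The members are 4 of the 10 libraries of the series, 2 of the gastrula and 2 of stage 5, chosen by their stage labels, and the 2 libraries of stage 4tt serve as the point in between. All are bulk RNA-seq libraries of whole, untreated animals, so fewer cells of a type and less RNA per cell cannot be told apart. The labels class stage 4tt as embryo and stage 5 as larva, whereas the study counts both among its larval stages. The number of animals in a sample, their age in hours and the brood each came from are not given in the sources used here, and the study calls its 2 RNA-seq samples of a stage biological replicates without naming separate broods for *C. teleta*, so a p value measures the spread between these samples.

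Gastrulation moves the future gut and muscle cells to the inside of the embryo. The larva of *C. teleta* lives on yolk, and it builds its ciliary bands, brain, ventral nerve cord and trunk segments before it settles. In animal embryos in general, transcripts made for the early embryo are cleared over such an interval while genes of differentiating tissues are switched on. What was deposited is a normalized read count for each of 41221 transcript models (features hereafter). Their identifiers carry no gene names except Capitella_post1, and none matched the gene table of the assembly Capca1, so the tissue markers of either stage could not be examined and features are described by their levels. The 35526 features (86.2%) above a normalized count of 2 in at least 2 of the 10 libraries were tested, and 5695 were not.

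The 4 libraries compared summed to between 34725268 and 44954049 normalized counts, and those of stage 4tt to 40492192 and 35525986. From the gastrula to stage 5, 5094 features rose, which is 14.3% of those tested, and 3638 fell, which is 10.2%. To be called, a feature had to change by more than 1 log2 unit on log2(value + 1), with a p under 0.05 after Benjamini-Hochberg adjustment, in a limma fit of all 10 libraries. Rises therefore made up 58.3% of the calls, and between 51.8% and 73.0% under the alternatives tried, the extremes coming from no minimum fold change and from a minimum of 2. For each of these features, both libraries of the higher stage lay above both libraries of the lower stage. Over all tested features, stage 5 lay wholly above the gastrula for 30.9% and wholly below it for 30.5%. The median log2 fold change of all tested features was 0.00, with a median standard error of 0.59.

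**Figure D1:**
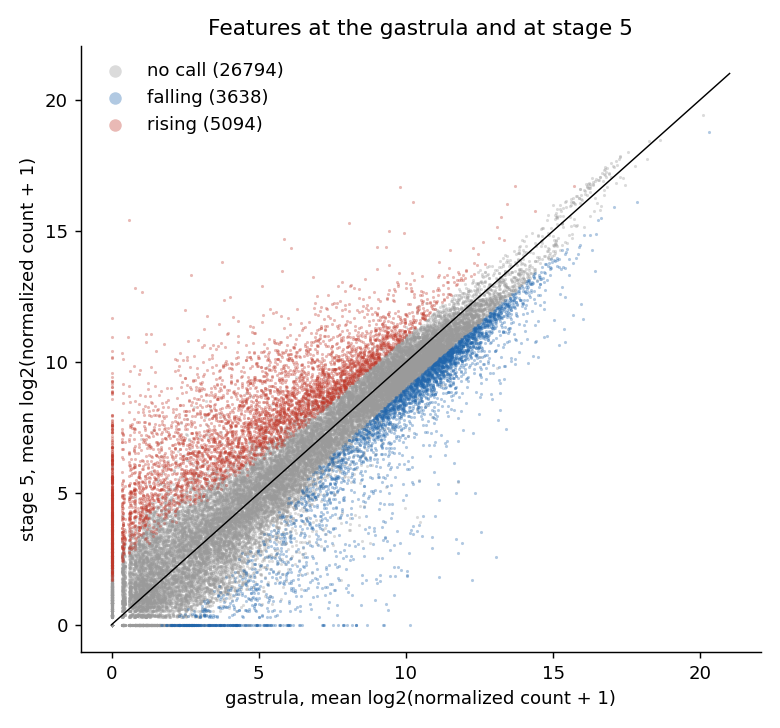
Mean log2(normalized count + 1) of 2 gastrula libraries (x axis) and 2 stage 5 libraries (y axis) for each of the 35526 tested features. The 5094 rising features (red) spread far above the diagonal of equal level, down to a gastrula level of 0, while most of the 3638 falling features (blue) lie in a narrow band below it at high levels.

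Rises and falls differed in size and in level. The median log2 fold change was 2.79 among the rises, with a median standard error of 0.49, and -1.65 among the falls, with a median standard error of 0.29. By mean over all 10 libraries, the medians of rises and falls were 2.90 and -2.83 under 10, and 3.42 and -2.89 from 10 to 100. They were 2.45 and -1.61 from 100 to 1000, and 1.93 and -1.39 at 1000 or more. The part of abundance in this difference of size was not tested. Rises of more than 4 log2 units numbered 1248, or 24.5% of the rises, and falls of that size numbered 359, or 9.87% of the falls. Falls of 1 to 2 log2 units were the most frequent class of falls, with 2269 features (62.4%), against 1400 rises (27.5%).

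The falling features were abundant at the gastrula, where the rising features had a median somewhat below that of the features without a call. The gastrula values helped choose both sets, so these levels are a description. The median normalized count of the falling features was 1206 and 1114 in the gastrula libraries, 506 and 507 in those of stage 4tt, and 336 and 395 in those of stage 5. The features without a call had medians of 38.8 and 35.9 at the gastrula. The median of the rising features was 23.1 and 25.7 at that stage, 124 and 144 at stage 4tt, then 230 and 221 at stage 5. Falling features were therefore still the more abundant ones at stage 5, although the median of the rising features had come closer to theirs. Among features with a mean of 1000 or more over all 10 libraries, 23.9% fell and 10.03% rose. Among those with a mean from 10 to 100, 4.78% fell and 15.5% rose.

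As a share of the library, the falling features lost more than the rising features gained, and both held similar shares at stage 5. The 2 gastrula libraries held 1.98% and 2.33% of their normalized counts in rising features, the stage 4tt libraries 7.22% and 9.67%, and the stage 5 libraries 11.4% and 12.8%. The share of falling features was 31.0% and 29.7% in the gastrula libraries, 16.4% and 16.5% in those of stage 4tt, and 11.3% and 12.8% in those of stage 5. Each stage 4tt library lay between the gastrula and the stage 5 libraries on both counts. The same gastrula and stage 5 libraries chose the features, which largely sets the direction of these shares, so they were not tested. With 2 libraries in each of 2 groups, the smallest two-sided p of an exact permutation test would also be 0.333. The 10 most abundant falling features of a library held 6.13% and 4.53% of its counts at the gastrula, and the 10 most abundant rising features 1.86% and 1.87% at stage 5, so neither share rested on a few features alone.

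**Figure D2:**
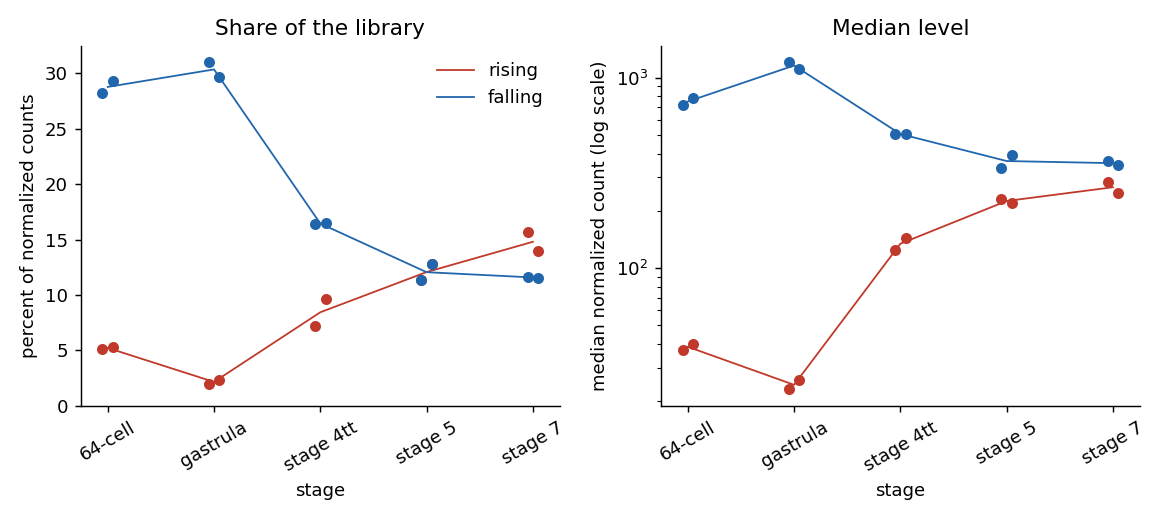
Left, share of each library's normalized counts held by the 5094 rising (red) and 3638 falling (blue) features; right, their median normalized count on a log axis. Points are single libraries, 2 for each stage along the x axis, and lines join the stage means. Rising features went from 1.98% and 2.33% of counts at the gastrula to 11.4% and 12.8% at stage 5, and falling features from 31.0% and 29.7% to 11.3% and 12.8%.

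The stages outside the interval entered the contrast that chose these features only through the filter and the shared estimate of the spread. The rising features held 5.16% and 5.29% of the counts at the 64-cell stage, more than at the gastrula, and 15.7% and 14.0% at stage 7. Both 64-cell libraries lay above both gastrula libraries for 2537 of them (49.8%), against 34.2% of all tested features. These features were lower at the gastrula than at the 64-cell stage and at stage 5. No minimum level or fold was set for the difference from the 64-cell stage. A further 1156 (22.7%) had both 64-cell libraries below both gastrula libraries, against 36.8% of all tested features. Among the falling features, 2109 (58.0%) had lower levels in both 64-cell libraries than in both gastrula libraries, and 1122 (30.8%) had higher ones. The gastrula libraries entered both the calls and these shares, which are therefore given without a test. By stage 7, 90.3% of the rising and 85.6% of the falling features lay on the stage 5 side of the midpoint between the gastrula and stage 5.

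To say how far stage 4tt had moved along the change, the position of each feature was taken as the log2 difference of stage 4tt from the gastrula, divided by that of stage 5 from the gastrula. A position of 0 is the gastrula level and a position of 1 the stage 5 level. On this log2 scale, the median feature had completed most of its change at stage 4tt in both directions. The median position was 0.780 for the rising features and 0.716 for the falling features. In the first step, from the gastrula to stage 4tt, the rising features gained a median of 2.04 log2 units, and in the second, from stage 4tt to stage 5, a median of 0.61. The falling features changed by a median of -1.17 before stage 4tt and -0.45 after it. Both steps are parts of the same interval and share the stage 4tt libraries, so a high value of one lowers the other.

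Positions varied between features. The middle 50% of the rising features lay between 0.605 and 0.921, and those of the falling features between 0.545 and 0.868. Positions between 0.5 and 1 held 3497 rising features (68.6%) and 2481 falling features (68.2%). A position above 1, past the stage 5 level, was found for 784 rising (15.4%) and 403 falling features (11.1%). At or below 0, where stage 4tt had not left the gastrula level, there were 126 rising (2.47%) and 41 falling features (1.13%). The small peak at 0 in the histogram of the rising features is made of those at or close to the gastrula level at stage 4tt.

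**Figure D3:**
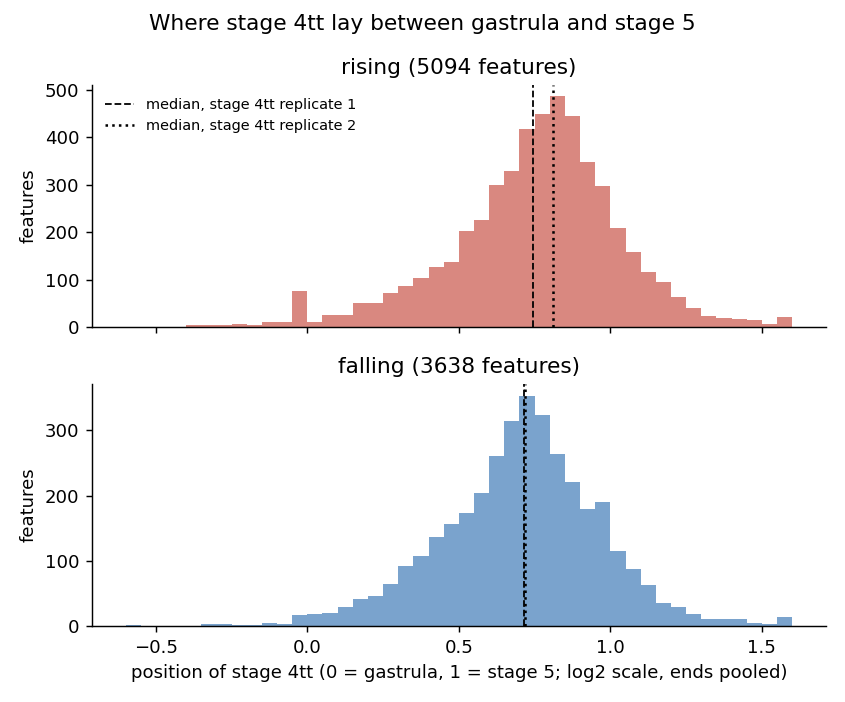
Histogram of the position of stage 4tt between the gastrula (0) and stage 5 (1) on the log2(value + 1) scale, for rising (top) and falling (bottom) features; values past the ends of the axis are pooled in the outermost bars. Dashed and dotted lines give the medians with stage 4tt replicate 1 (0.744 rising, 0.716 falling) and replicate 2 (0.810 rising, 0.718 falling).

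The same picture was then drawn from single libraries. Both stage 4tt libraries lay strictly between the 2 gastrula and the 2 stage 5 libraries for 2658 rising features (52.2%) and 1787 falling features (49.1%). They had left the gastrula range, with at least 1 of them inside the stage 5 range or past it, for 1730 rising (33.96%) and 1450 falling features (39.9%). Both lay past both stage 5 libraries for 244 rising (4.79%) and 82 falling features (2.25%). Both lay past both gastrula libraries on the side away from stage 5 for 10 rising and 10 falling features. In a further 423 rising (8.30%) and 261 falling features (7.17%), neither stage 4tt library reached stage 5 levels. At least 1 of the 2 had there not passed both gastrula libraries toward stage 5.

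For the rising features, the median position was 0.744 with stage 4tt replicate 1 and 0.810 with replicate 2. For the falling features it was 0.716 and 0.718. With 1 library for each stage, in all 8 combinations, it ranged from 0.734 to 0.825 for the rises and from 0.676 to 0.762 for the falls. These ranges overlap. When features were called with replicate 1 of both ends and placed with replicate 2 as ends, the medians were 0.806 for rises and 0.799 for falls. The reverse choice gave 0.778 and 0.721. The lead of the rises over the falls on the log2 scale was therefore not larger than the spread between libraries. Taken within the same libraries, the lead kept its sign with each library left out, from 0.0295 to 0.114.

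The order of rises and falls depended on the scale. On linear stage means, the median position was 0.575 for the rising and 0.835 for the falling features, a difference (rises minus falls) of -0.259. A feature that grows by a constant factor adds most of its counts late, and one that shrinks by a constant factor loses most of its counts early, so a difference of this sign is built into the linear scale. In normalized counts, 90.7% of the falling features had passed the linear midpoint by stage 4tt, and 58.1% of the rising features had.

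The distance of stage 4tt from the midpoint of both ends was tested as a contrast of its own. With equal numbers of libraries, its estimate is uncorrelated with that of the contrast that chose the features. Both contrasts use the same estimate of each feature's spread, so choosing features by p also favours calls here. Stage 4tt lay on the stage 5 side of the log2 midpoint for 4281 rising features (84.0%) and 2884 falling features (79.3%), and on the gastrula side for 813 and 754. In limma, with a distance above 0.5 log2 units and an adjusted p under 0.05, it was called on the stage 5 side for 491 rising features (9.64%) and on the gastrula side for 13. The background for calls above the midpoint was 1.57% of all tested features, or 556, which include these 491. For falling features the calls were 199 (5.47%) on the stage 5 side and 7 on the gastrula side. The background for calls below the midpoint was 0.805%, or 286 features, which include these 199. Features with large changes have more room to lie far from the midpoint than others, so a higher share than the background is partly built in. Counts by unadjusted p given below also required a distance above 0.5 log2 units. The counts by adjusted p were fragile. They fell to 0 on all sides in limma without stage 5 replicate 2 and with only the 6 libraries of the 3 stages in the fit, where 1859 rising features on the stage 5 side and 174 on the gastrula side had an unadjusted p under 0.05. Without stage 4tt replicate 1 they were 26 rising and 20 falling features on the stage 5 side, with 0 of either on the gastrula side, where 69 rising and 66 falling features had an unadjusted p under 0.05 in limma. Without stage 4tt replicate 2, 34 rising features were called on the stage 5 side and 7 on the gastrula side. For falling features the balance then turned, with 13 on the stage 5 side and 43 on the gastrula side.

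Median position was lower for larger falls, while it varied little with the size of the rises. The change that sorts features into size classes is also the divisor of the position, taken from the same libraries. An order by size can therefore be partly built in, and these medians are a description. The part of this coupling was not tested. Rising features had a median position of 0.804 for changes of 1 to 2 log2 units, 0.766 for 2 to 4 and 0.779 above 4. Falling features had 0.748, 0.668 and 0.534, although their ranges over single libraries overlapped between these classes. Over the 8 combinations of single libraries, the ranges of rises and falls overlapped in the class of 1 to 2, from 0.745 to 0.860 and from 0.691 to 0.803. They did not overlap in the class of 2 to 4, with 0.725 to 0.814 for rises and 0.648 to 0.719 for falls. Above 4 log2 units they did not overlap either, with 0.739 to 0.820 for rises and 0.410 to 0.693 for falls. The ends in all 8 combinations come from the libraries that set the size classes, so these ranges are not a separate check.

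The deep falls were also those for which the 2 stage 4tt libraries stood furthest apart. Among the 359 falls above 4 log2 units, the median position was 0.433 with stage 4tt replicate 1 and 0.665 with replicate 2. Stage 4tt replicate 1 held the higher value for 68.5% of them, and its median excess over replicate 2 was 0.95 log2 units. In the gastrula, replicate 1 exceeded replicate 2 by a median of 0.45 log2 units over the same features, and at stage 5 the median difference was 0.00. For the 1248 rises of that size, the median of stage 4tt replicate 1 minus replicate 2 was -0.39 log2 units, with positions of 0.748 and 0.815. Replicate 1 was thus nearer the gastrula than replicate 2 in both sets. The part of this difference between libraries in the position of the deep falls was not tested.

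**Figure D4:**
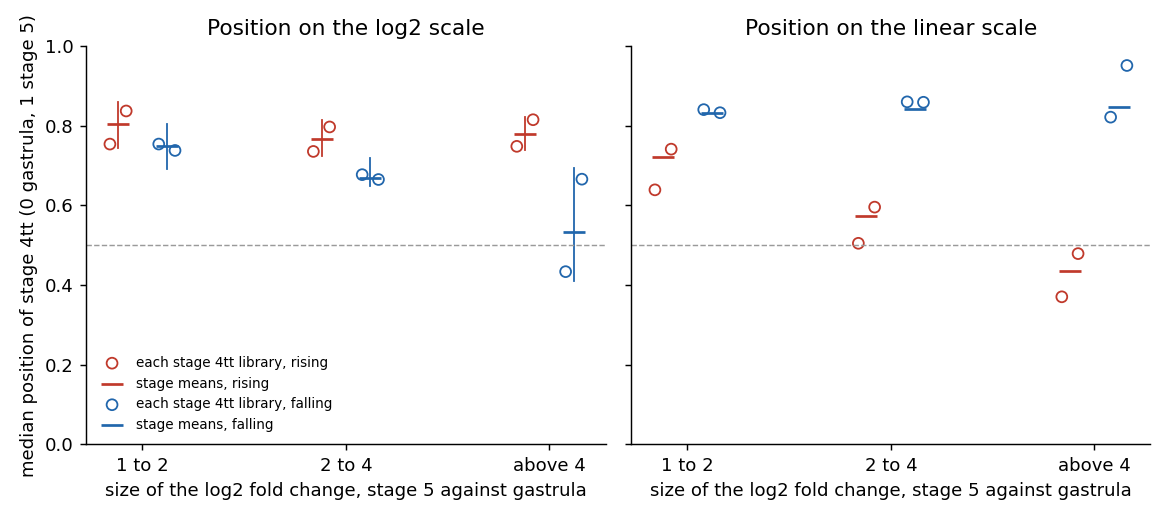
Median position of stage 4tt (0 gastrula, 1 stage 5) for features grouped by the size of their log2 fold change, on the log2 scale (left) and on linear stage means (right), rising in red and falling in blue. Horizontal bars use stage means, circles use each stage 4tt library with the stage means as ends, and vertical lines on the left span the 8 combinations of 1 library per stage. Deep falls dropped to 0.534 on the log2 scale but stood at 0.846 on the linear scale, and deep rises had 0.779 and 0.435.

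Some features were listed at 0 at one end. At least 10 normalized counts in both stage 5 libraries, with 0 in both gastrula libraries, were found for 306 features, and the opposite for 104. The features that appeared had a median of 35.1 normalized counts at stage 5, and 55 of them had a mean of 100 or more. At stage 4tt their median was 10.8 in replicate 1 and 13.0 in replicate 2. Both stage 4tt libraries were above 0 for 251 of the 306, and both were at 0 for 12. At stage 7, 261 still had 10 or more in both libraries.

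New onset was only part of this set. Both 64-cell libraries were also at 0 for 96 of the 306 features, while 64 had 10 or more in both. The 104 features that disappeared had a median of 32.5 normalized counts at the gastrula and 71.8 at the 64-cell stage. Their stage 4tt medians were 6.66 and 2.10. Both stage 4tt libraries were at 0 for 14 of them and both were above 0 for 52. A value of 0 says that the feature was not detected at this depth. Both counts grew when 1 library of an end was left out, but this drops a condition, so they could not shrink.

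Because identifiers carry no names, 4 features stand for the extremes: the largest log2 rise, the largest gain in normalized counts, the largest log2 fall and the largest loss. Their values chose them, so they are a description.

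The largest rise was that of CTELG00000002039.1. It had 0 and 1.25 normalized counts at the gastrula, 1055 and 2655 at stage 4tt, then 46105 and 42657 at stage 5. The libraries of the 3 stages did not overlap, and the level went on to 119010 and 101560 at stage 7. On log2(value + 1) it rose by 14.85 (SE 0.48, limma adjusted p = 4.07e-06), which with a gastrula level this close to 0 depends on the pseudocount and was 12.95 to 16.88 over the alternatives other than leaving a library out. On the log2 scale its position at stage 4tt was 0.682, and on the linear scale 0.0418. Stage 4tt lay above the log2 midpoint by 2.70 (SE 0.41, adjusted p = 0.0202 by limma). The gene has 2 tested models. The other one rose as well, from 0 and 3.24 through 83.7 and 329 to 4864 and 8964 normalized counts, and pseudo-alignment may have divided reads between them.

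The largest gain was that of CTELG00000025543.1, the only tested model of its gene. It had 536 and 1466 normalized counts at the gastrula, 40606 and 39688 at stage 4tt, then 137698 and 79975 at stage 5. The 2 stage 4tt libraries lay close together, between both ends. It rose by 6.89 log2 units (SE 0.59, limma adjusted p = 6.84e-05), and its position was 0.799. At the 64-cell stage it had 10.1 and 34.7 normalized counts, and at stage 7 it had 80713 and 51303, so the increase began before the gastrula and did not continue after stage 5.

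The largest fall was that of CTELG00000017368.1, also the only tested model of its gene. It had 5637 and 4163 normalized counts at the gastrula, 663 and 129 at stage 4tt, then 9.39 and 0 at stage 5. The stages did not overlap, and the 2 stage 4tt libraries differed more than the gastrula libraries did. At the 64-cell stage it had 30125 and 30053. The log2 change was -10.55 (SE 1.07, limma adjusted p = 0.000154), and its position of 0.383 was on the gastrula side of the log2 midpoint, at a distance of 1.23 that did not pass the test (SE 0.93, adjusted p = 0.552 by limma). On the linear scale the same feature stood at 0.920.

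The largest loss was that of CTELG00000029351.1, the only tested model of its gene. It held 3.87% and 2.29% of all normalized counts at the gastrula, 2.36% and 1.06% at stage 4tt, then 1.64% and 0.852% at stage 5. In normalized counts it went from 1741060 and 978894 through 955587 and 375905 to 661717 and 295979. Replicate 1 exceeded replicate 2 at each of these stages, and the stage 4tt libraries overlapped with stage 5. The log2 change was -1.56 (SE 0.49, limma adjusted p = 0.0403). The call was lost with no filter (adjusted p = 0.202 by limma), with a pseudocount of 0.1 (0.0561), with only the 3 stages in the fit (0.191) and with only both stages in it (0.258). Of the 10 fits with 1 library left out, it was lost in 4, namely those without gastrula replicate 1 (adjusted p = 0.233 by limma), without stage 5 replicate 2 (0.230), and without stage 7 replicate 1 or 2 (0.0639 each). The adjusted p ranged from 0.00612, with the replicate number as a block, to 0.258.

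**Figure D5:**
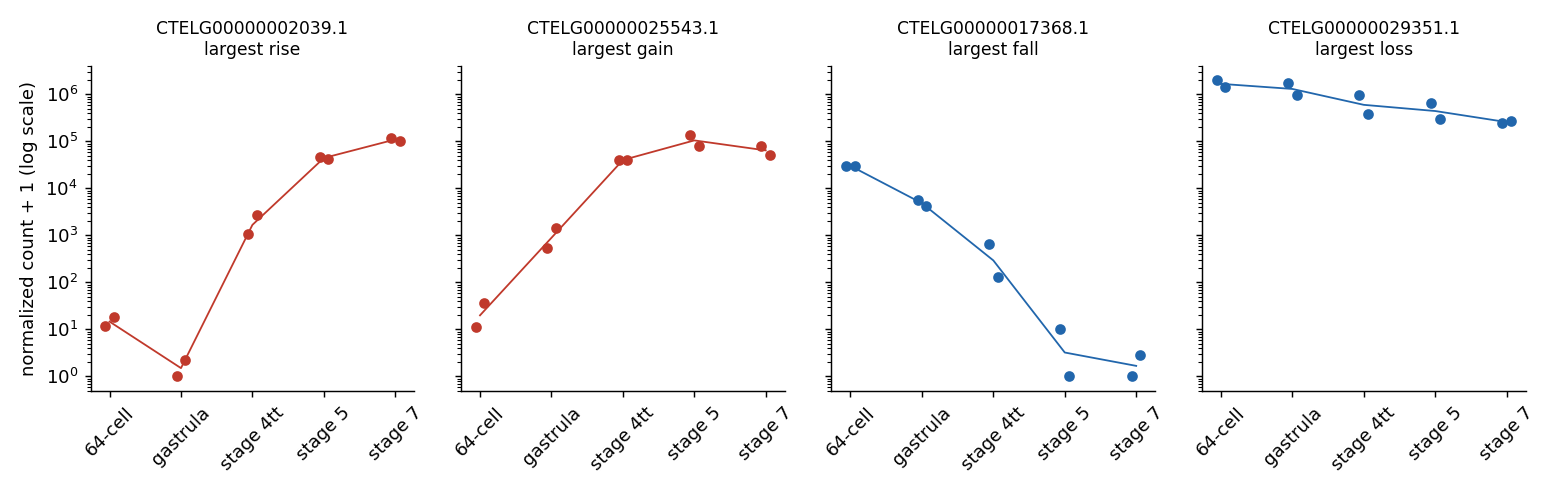
Normalized count + 1 on a log axis by stage for the features with the largest rise, gain, fall and loss between the gastrula and stage 5; points are single libraries and lines join the geometric means of value + 1. CTELG00000002039.1 climbed from 0 and 1.25 to 46105 and 42657 normalized counts, and CTELG00000017368.1 dropped from 5637 and 4163 to 9.39 and 0.

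The only identifier with a name, Capitella_post1, belongs to the Hox gene Post1, a member of the family that patterns the trunk from front to back. It was listed at 0 in both gastrula, both stage 4tt and both stage 5 libraries, so no change of it was detectable over this interval. Both 64-cell libraries were also at 0, and the stage 7 libraries had 39.3 and 42.1 normalized counts.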

How the data were processed

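Total RNA of whole animals was extracted with a column kit and made into strand-specific mRNA libraries. Per the study's methods, the authors trimmed adaptors with trimmomatic, pseudo-aligned reads to filtered gene models with kallisto (v0.46.2) and used DESeq2 (v1.30.1) to normalize read counts between developmental stages. Each deposited value is such a signal, 1 normalized count per transcript model, so raw depth is not given. Pseudo-alignment can divide reads between similar models. Of the values from above 0 to 10, only 13.9% to 18.5% per library lay within 0.05 of a multiple of the smallest values, so reads could not be recovered as whole numbers and limma was used in place of the count-based test of consecutive stages that the study describes, with its fold and p thresholds.

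Features above 2 in at least 2 libraries were transformed as log2(value + 1) and fitted with limma (v3.58.1, R v4.3.3), 1 coefficient per stage, empirical Bayes moderation with a trend, and all 10 libraries sharing 1 spread. P values were Benjamini-Hochberg adjusted over all 35526 features. The midpoint contrast was stage 4tt minus the mean of gastrula and stage 5. No feature had identical nonzero values in both libraries of a stage. Plots used Python (v3.11.15) with matplotlib (v3.10.9). Features were named by rank among calls whose libraries did not overlap and whose higher stage averaged 10 or more: the largest log2 rise and fall, then the largest gain and loss in normalized counts. Any identifier with a gene name was added. Of 31977 genes in the table of Capca1, 0 matched an identifier. The members, lists and tests were chosen with earlier results of these data known. Alternatives were another scaling, filters, pseudocounts, fold thresholds, array weights, a replicate block, fits of fewer stages, gene sums, other position scales and ends, and each library left out.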

Additional observations from a re-analysis of the deposited data

How the results depend on the processing

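Of the counts of rises and falls between the gastrula and stage 5, all 20 with 1 library left out and 23 of 24 under the other alternatives stayed within 1.5 times the reported number. A minimum of 2 log2 units by construction left 1369 falls. No called feature turned to the opposite call in any fit compared. The 2 ends did not overlap for any called feature, so leaving out a library or changing filter or pseudocount could not turn one. Apart from that threshold, at least 63.6% of the rises (only both stages in the fit) and 65.8% of the falls (without gastrula replicate 1) remained called. After median-ratio scaling, the median change over all features was 0.04 log2 units in place of 0.00. The replicate number as a block gave 5137 rises and 3739 falls. The differences between replicates correlated at 0.06 between gastrula and stage 5, 0.11 between gastrula and stage 4tt and 0.22 between stages 4tt and 5, and the labels name no shared brood.

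Calls against the midpoint moved most, and counts by unadjusted p below also required a distance above 0.5 log2 units. Rises on the stage 5 side numbered 299 with no filter, 251 with array weights and 0 with only 3 stages in the fit, and 0 (without stage 5 replicate 2) to 596 (without gastrula replicate 2) with 1 library left out. Falls on that side numbered 126 with median-ratio scaling, 95 with array weights, 57 with doubled thresholds and 0 with 3 stages, and 0 to 169 with 1 library left out. Rises on the gastrula side numbered 7 with median-ratio scaling, 26 with no filter, 6 with a pseudocount of 0.1, 4 with array weights and 0 with 3 stages, and 0 to 11 with 1 left out. Falls on that side numbered 2 with array weights and 0 with 3 stages, and 0 to 43 (without stage 4tt replicate 2) with 1 left out. In limma without stage 5 replicate 2, the unadjusted p was under 0.05 for 1573 rises and 657 falls on the stage 5 side, and for 117 and 166 on the gastrula side. With 3 stages, 777 falls on the stage 5 side and 67 on the gastrula side had one. Fewer libraries leave fewer degrees of freedom by construction, and for the other settings the cause was not tested.

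The median position of the rises was 0.740 to 0.812 and that of the falls 0.641 (without stage 5 replicate 2) to 0.758 with 1 library left out, and the difference of medians 0.0295 to 0.114. The linear scale gave 0.575 for rises, 0.835 for falls and a reversed difference of -0.259. Only changes above 2 log2 units gave 0.634 for falls and a difference of 0.137. Calls from replicate 1 with ends from replicate 2 gave 0.799 for falls and a difference of 0.00630. Features with a mean of 100 or more, chosen after the data were seen, gave 0.799 for rises and 0.726 for falls.

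Features absent at the gastrula numbered 479, 181 and 527 with a minimum of 5, of 20, and with under 2 in place of 0. Those absent at stage 5 numbered 182, 55 and 178. With 1 library of an end left out, which by construction cannot lower the counts, they were 434 to 728 and 178 to 391. The features named for the largest rise, gain, fall and loss kept direction throughout. They were chosen among calls whose gastrula and stage 5 libraries did not overlap. Leaving out a library or changing filter, pseudocount or weights could therefore not turn them, so this is not a separate check.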

Other observations

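Among the rises, low features had lower positions. Rising features with a mean under 10 over all libraries numbered 416 and had a median position of 0.579 at stage 4tt, against 0.757 for the 1539 with a mean from 10 to 100, 0.792 for the 2438 from 100 to 1000 and 0.815 for the 701 at 1000 or more. The falling features showed no such order, with 0.726, 0.635, 0.715 and 0.731 in the same classes. For the rises, a mean under 10 is close to the pseudocount of 1, whose part in this order was not tested. Over all rises, the median position was 0.801 with a pseudocount of 0.1 and 0.756 with a pseudocount of 5. Rising features at under 2 normalized counts in both 64-cell libraries, of which there were 659, had a median position of 0.725, and the 3304 with 10 or more in both had 0.792.

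Of 2639 gene identifiers with 2 or more tested models, 1106 had at least 1 called model. Of all tested features 24.6% were called either way, and a gene with more models has more chances of a call. In 184, 2 or more models rose and none fell, and in 134, 2 or more fell and none rose. A rising and a falling model in the same gene were found for 26 identifiers. Summed over models, 7 of these 26 rose and 5 fell between the gastrula and stage 5. Reads divided between models by pseudo-alignment could not be followed in these values.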
